A study of Rattus norvegicus with 12 samples.

Results

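The genes described here are 9 brakes of the cell cycle and parts of the p53 pathway, taken by symbol from a table of 16898 rat genes. They are the Cip/Kip inhibitor genes Cdkn1a, Cdkn1b and Cdkn1c, the INK4 inhibitor genes Cdkn2c and Cdkn2d, the pocket protein genes Rbl1 and Rbl2, and Mdm2 and Ccng1, which act around p53. A row was used for 8 of the 9, each symbol standing for 1 row, and Cdkn2d was not analysed here. All 8 passed the filter on low values, which kept the 13117 of 16898 genes whose FPKM averaged 1 or more across all 6 libraries.

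The series compares heart tissue of Sprague Dawley rats at 2 postnatal ages, in 12 samples. Older hearts (day 7 in the labels, 10D in the column headers) have 3 input libraries and day 0 hearts have 3, and no treatment, transgene or altered allele is named for either. The other 6 samples are RNA pulled down with an antibody against the RNA mark N6-methyladenosine and were not analysed here, so the values below are transcript levels in input RNA. Because labels and headers disagree on the later age, those samples are called older hearts and no exact age is claimed. The labels do not say whether libraries came from separate animals or from pools, so the spread that p-values rest on may be technical.

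As background, cyclin-dependent kinases (CDKs) drive a cell from G1 into S phase. INK4 proteins bind CDK4 and CDK6, and Cip/Kip proteins bind complexes of cyclins and CDKs. Pocket proteins hold E2F transcription factors in a repressive state until CDKs phosphorylate them, and Rbl1 (p107) and Rbl2 (p130) do so within the DREAM complex. The transcription factor p53 induces Cdkn1a, Mdm2 and Ccng1, and Mdm2 in turn marks p53 for degradation. Rat heart muscle cells divide in the newborn and largely leave the cell cycle in the following days.

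Promoter windows are printed for the gene that rose most (Cdkn1a), for Ccng1 from the same p53 pathway, whose level did not separate the ages, and for the pocket pair Rbl1 and Rbl2, whose levels lay in opposite directions. Each is a window of 300 bases from RefSeq (build GRCr8), with 250 bases before the annotated start and 50 from it, read 5′ to 3′ on the gene's strand. Matching by symbol gave a window for 8 of the 9 genes (Cdkn1c had none). Capitals mark the 10-base p53 half-site in Cdkn1a and Ccng1, an E2F form in Rbl1 and the CHR motif in Rbl2. Cdkn1a lies at chr20:7150682-7150981 on the plus strand, Ccng1 at chr10:25684827-25685126, Rbl1 at chr3:166289327-166289626 and Rbl2 at chr19:32096362-32096661, these last on the minus strand.
Cdkn1a: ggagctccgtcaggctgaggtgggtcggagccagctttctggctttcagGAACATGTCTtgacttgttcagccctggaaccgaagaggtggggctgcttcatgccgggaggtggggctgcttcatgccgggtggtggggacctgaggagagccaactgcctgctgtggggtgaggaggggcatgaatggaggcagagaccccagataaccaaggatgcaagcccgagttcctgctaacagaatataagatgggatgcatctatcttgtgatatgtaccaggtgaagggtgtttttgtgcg
Ccng1: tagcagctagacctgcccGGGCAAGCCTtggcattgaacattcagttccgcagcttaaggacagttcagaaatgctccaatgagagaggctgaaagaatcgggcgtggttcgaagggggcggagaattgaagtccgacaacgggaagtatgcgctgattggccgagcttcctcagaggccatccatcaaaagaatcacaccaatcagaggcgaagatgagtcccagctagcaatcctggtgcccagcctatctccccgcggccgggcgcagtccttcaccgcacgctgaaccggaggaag
Rbl1: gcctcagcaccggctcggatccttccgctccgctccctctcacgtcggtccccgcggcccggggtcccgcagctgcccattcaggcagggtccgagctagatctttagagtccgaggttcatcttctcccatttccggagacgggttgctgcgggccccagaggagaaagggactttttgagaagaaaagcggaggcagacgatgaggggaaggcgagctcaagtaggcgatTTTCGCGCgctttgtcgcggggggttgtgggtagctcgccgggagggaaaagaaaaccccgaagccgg
Rbl2: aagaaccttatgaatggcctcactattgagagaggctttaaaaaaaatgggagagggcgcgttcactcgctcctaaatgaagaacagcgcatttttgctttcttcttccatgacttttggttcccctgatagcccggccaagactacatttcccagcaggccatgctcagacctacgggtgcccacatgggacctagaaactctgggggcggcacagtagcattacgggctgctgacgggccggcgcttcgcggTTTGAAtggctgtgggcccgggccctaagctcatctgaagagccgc

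The motifs were searched on both strands as the p53 half-site by its consensus, E2F as TTTCCCGC, TTTCGCGC, TTTGCCGC or TTTGGCGC, CHR as TTTGAA, the GC box as GGGCGG and the CCAAT box as CCAAT. In Cdkn1a the match to the half-site, GAACATGTCT, began 201 bases before the start, and in Ccng1 the match, GGGCAAGCCT, began 232 bases before it. Of all 33469 promoter windows 7.98% held such a half-site, so it is not rare. The windows of Cdkn2c, Cdkn2d and the pocket protein gene Rb1 also held a match to it, and that of the p53 target Mdm2 held none. The Rbl1 window held the E2F form TTTCGCGC, beginning 18 bases before the start, whereas 2.14% of all windows held any of the 4 E2F forms. In Rbl2 the CHR motif began at base 5 after the start, and 18.3% of windows held it. An E2F form was also found in the Rb1 window and the CHR motif in the Mdm2 window. The Cdkn1b window held 1 GC box and 2 CCAAT boxes, which 33.1% and 37.5% of windows held at least once. None of the matches in the windows of Cdkn1a, Ccng1, Rbl1, Rbl2 and Cdkn1b overlapped a match to another motif. A match describes letters, not binding.

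The libraries held 15868418, 16097510 and 15027254 reads in older hearts and 14613968, 13489816 and 16297533 in day 0 hearts, as recovered from the FPKM values. FPKM scales reads by gene length and library total, and levels are compared between genes on that scale only. Day 0 library 3 stood somewhat apart on the log2(FPKM + 1) scale over all tested genes. Its correlations with the other day 0 libraries were 0.869 and 0.882, against 0.918 between those and 0.917 to 0.933 among the older ones. With the older libraries it had 0.842 to 0.852, against 0.862 to 0.897 for the other day 0 libraries. Day 0 library 3 also held the highest day 0 FPKM of each of the 8 genes and of Rb1. Cardiomyocyte markers were abundant at both ages, summing to 52814 to 61837 FPKM in older hearts and 59820 to 69345 FPKM in day 0 hearts over 8 genes.

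Of the 8 genes, Cdkn1a alone passed limma's test between the ages (Benjamini-Hochberg adjusted p under 0.05 over all 13117 genes), and it rose. The share of all tested genes that passed was 9.26%, with 3.52% higher and 5.73% lower, so 1 call in 8 is near that background. Of these calls 38.1% were higher, and 57.1% after centring each library on its median gene, since the median log2 fold change of all tested genes was -0.11. None of the 8 fell, although 3 were higher and 2 lower at an unadjusted p under 0.05, which 25.9% of all tested genes reached. Voom on recovered reads, limma's method for counts, called 3 higher (Cdkn1a, Cdkn1b and Rbl2) and 0 lower, against 12.7% of all tested genes called and 7.22% called higher. Lower calls by voom numbered 715 of the 13117 tested genes. In the authors' deposited table the same 3 pass as higher and 1, Cdkn1c, as lower at an adjusted p of 0.05, and 14.4% of the tested genes pass. The 3 older libraries lay wholly above the 3 day 0 libraries in Cdkn1a, Cdkn1b and Rbl2 and wholly below them in Cdkn1c. That is 4 of 8, where 32.5% of all tested genes had such a gap (12.2% higher, 20.3% lower).

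**Figure D1:**
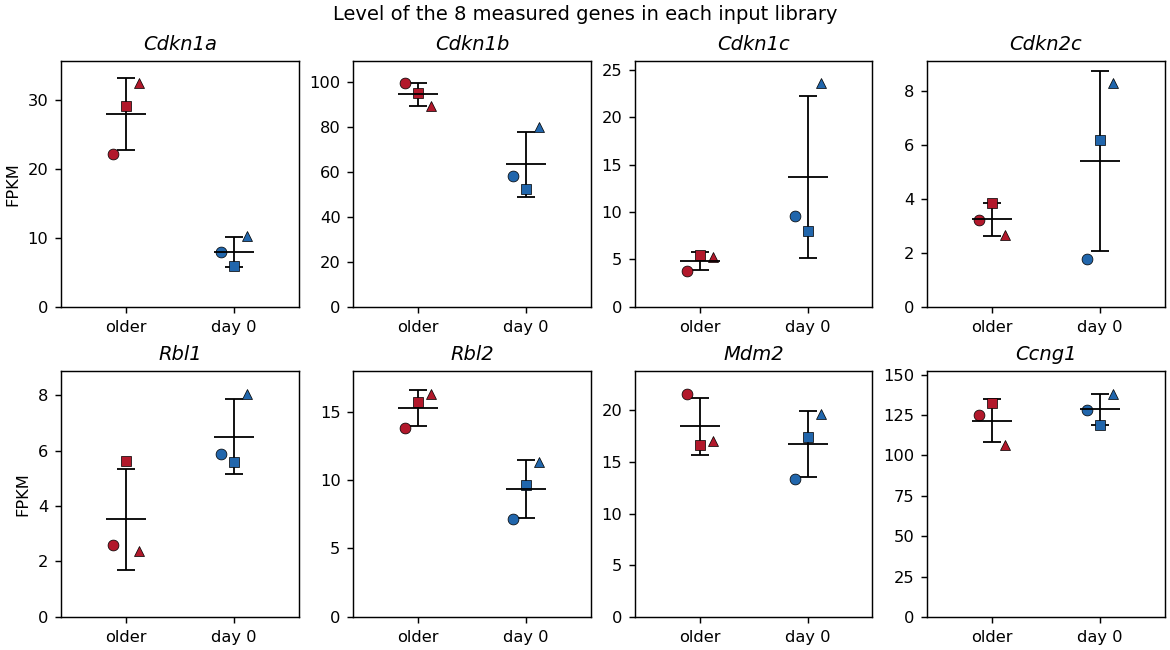
FPKM (vertical axis, from 0) of the 8 genes in each input library, older hearts on the left and day 0 hearts on the right, with circles, squares and triangles for libraries 1, 2 and 3 of each age and bars for mean ± SD (n = 3). Ages are separate in Cdkn1a, Cdkn1b, Cdkn1c and Rbl2 and overlap in Cdkn2c, Rbl1, Mdm2 and Ccng1.

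Cdkn1a encodes p21, the Cip/Kip inhibitor best known as a p53 target. It had 22.2, 29.1 and 32.4 FPKM in older hearts, against 7.91, 5.86 and 10.2 FPKM in day 0 hearts. Every older library held more than the highest day 0 library, and the lowest of the 6 was day 0 library 2. In reads these were 655, 872 and 905 in older hearts and 215, 147 and 310 in day 0 hearts, so counting error is small beside the difference. The mean was 3.49 times as high in older hearts (27.9 ± 5.2 FPKM in older against 7.998 ± 2.19 FPKM in day 0 hearts; SD, n = 3 each), with a log2 fold change of 1.70 (SE 0.23, 95% interval 1.15 to 2.24, limma adjusted p = 0.00673). Of all tested genes, 1.39% had a log2 fold change that high. The call held without any 1 library, with log2 fold changes of 1.51 to 1.87 and a limma adjusted p of up to 0.0498, reached without older replicate 2.

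Some markers of other cell types moved with Cdkn1a, and others did not. In the fibroblast list 7 of 8 genes rose, where 3.52% of all tested genes rose, and Tcf21 was at -0.39 on the log2 scale. The summed level of these 8 was 865 to 976 FPKM in older hearts and 346 to 544 FPKM in day 0 hearts. With 1 library left out, 3 to 7 of these 8 were called. Of 7 tested endothelial markers 2 rose, Cdh5 and Cldn5, with sums of 315 to 339 FPKM in older hearts and 227 to 268 FPKM in day 0 hearts. With 1 library left out, 0 to 2 were called: Cdh5 was lost in 2 of 6 cases and Cldn5 in 5 (limma adjusted p up to 0.0574 and 0.137, both without older replicate 2). Among 8 cardiomyocyte markers 1 rose (Myh6, lost in 4 of 6 such cases), with the sums given above. Of 8 pericyte and smooth muscle markers 1 rose (Rgs5, lost in 4 of 6 such cases) and 2 fell (Acta2 and Cnn1). Their sums were 333 to 349 FPKM in older hearts and 335 to 392 FPKM in day 0 hearts. Of 6 tested leukocyte markers and 5 tested erythroid markers 0 rose and 0 fell, also by voom. Voom called 7 fibroblast, 4 endothelial and 3 cardiomyocyte markers higher and 0 lower, where 7.22% of all tested genes were called higher. In the pericyte and smooth muscle list it called 2 higher and 2 lower. No found marker of the fibroblast or endothelial lists was at 0 in all libraries. The genes whose log2(FPKM + 1) followed Cdkn1a most closely over the 6 libraries were Pdgfra, a receptor of fibroblasts, Cdh5, the cadherin of endothelium, and Axl, a receptor tyrosine kinase, each with Pearson r = 0.999. These likenesses, here and below, are the closest 3 picked from 8325 genes for each member, and describe only 6 libraries that share age. In bulk tissue a change in the number of cells of a type and a change of RNA per cell cannot be told apart, and the part of these cell types in the Cdkn1a result was not tested.

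Cdkn1b encodes p27, which holds cyclin and CDK2 complexes inactive in resting cells. Its level was 99.5, 95.1 and 89.3 FPKM in older hearts and 58.3, 52.4 and 79.9 FPKM in day 0 hearts. The ages did not overlap. Day 0 library 3, the highest day 0 library here as in all the other members, stood closest to the older hearts. Means were 94.6 ± 5.12 FPKM in older and 63.5 ± 14.5 FPKM in day 0 hearts (SD, n = 3 each; log2 fold change 0.59, SE 0.16, 95% interval 0.21 to 0.97), a difference that limma did not call (adjusted p = 0.0659). It was called after centring on the median gene (limma adjusted p = 0.0464), after quantile normalization (0.0424), by voom (0.00582), in the authors' deposited table (0.00105) and without day 0 replicate 3 (limma adjusted p = 0.0141). Closest in pattern were Rhobtb1 (r = 0.998), Ugp2 (0.991) and Plekhh2 (0.990) over the same 6 libraries.

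Cdkn1c encodes p57, the inhibitor that is imprinted in mouse and human and expressed from the maternal allele. Older hearts had 3.74, 5.51 and 5.25 FPKM, against 9.62, 7.95 and 23.6 FPKM in day 0 hearts. All older libraries lay below all day 0 libraries, and day 0 library 3 held far more than the other 5. The reads behind these values were 121, 181 and 161 in older hearts and 287, 219 and 784 in day 0 hearts. Means of 4.83 ± 0.958 FPKM in older and 13.7 ± 8.58 FPKM in day 0 hearts (SD, n = 3 each) gave a log2 fold change of -1.20 (SE 0.39, 95% interval -2.10 to -0.30) that limma did not call (adjusted p = 0.0977). Without day 0 replicate 3 it was -0.76 (limma adjusted p = 0.114), while the authors' deposited table gives -1.39 with an adjusted p of 0.012. Fast skeletal muscle genes also set this library apart. Mylpf, Tnnt3 and Myh1 reached at most 0.0862, 4.56 and 0.375 FPKM in older hearts, against 30.6, 57.6 and 6.55 FPKM in day 0 library 3 and at most 0.655, 0.137 and 0.356 FPKM in the other day 0 libraries. The other found genes of that list, Acta1 and Ckm, are also made by heart muscle, and the summed level of all 5 was 1939 to 2413 FPKM in older and 2521 to 2773 FPKM in day 0 hearts. Among 7 found leukocyte markers Lyz2 had 21.1 to 24.6 FPKM in older hearts, against 50.4 FPKM in day 0 library 3 and 20.3 and 15.1 FPKM in the other day 0 libraries. Cd68 and Cd163 were also highest there, but Mrc1 was lowest there at 6.27 FPKM and Ptprc and Csf1r were not raised. The part of these cell types in the Cdkn1c value was not tested. Over the 6 libraries Acvr1b (r = 0.994), Galnt11 (0.991) and Arl6ip4 (0.991) followed Cdkn1c most closely. Of the 7 tested genes around it in the imprinted region 0 rose and 1 fell, where 5.73% of all tested genes fell. Voom called 2 of the 7 lower, and 2 were lower at an unadjusted p under 0.05. The gene that fell was Igf2, a fetal growth factor, at 56.3 ± 7.72 FPKM in older and 131 ± 15.6 FPKM in day 0 hearts (SD, n = 3 each; log2 fold change -1.21, limma adjusted p = 0.00383, up to 0.0311 without any 1 library). Nap1l4, a histone chaperone gene and the other one called by voom, was at -0.61 on the log2 scale (limma adjusted p = 0.0868). Kcnq1, the potassium channel gene beside Cdkn1c, was at -0.13 on the log2 scale (limma adjusted p = 0.619).

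Together the Cip/Kip genes made up 125, 130 and 127 summed FPKM in older hearts and 75.8, 66.2 and 114 in day 0 hearts. Cdkn1b supplied most of this at both ages, 74.3% ± 4.58 in older and 75.4% ± 4.6 in day 0 hearts (SD, n = 3 each). The remainder was shared differently. Cdkn1a took 17.7%, 22.5% and 25.5% in older hearts and 10.4%, 8.85% and 8.99% in day 0 hearts, whereas Cdkn1c took 2.98%, 4.25% and 4.14% in older and 12.7%, 12% and 20.7% in day 0 hearts. Cdkn1a exceeded Cdkn1c by a ratio of 5.94, 5.29 and 6.17 in the older libraries, and stood below it in each day 0 library, at ratios of 0.822, 0.737 and 0.434. These shares and ratios are descriptions and were not tested.

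**Figure D2:**
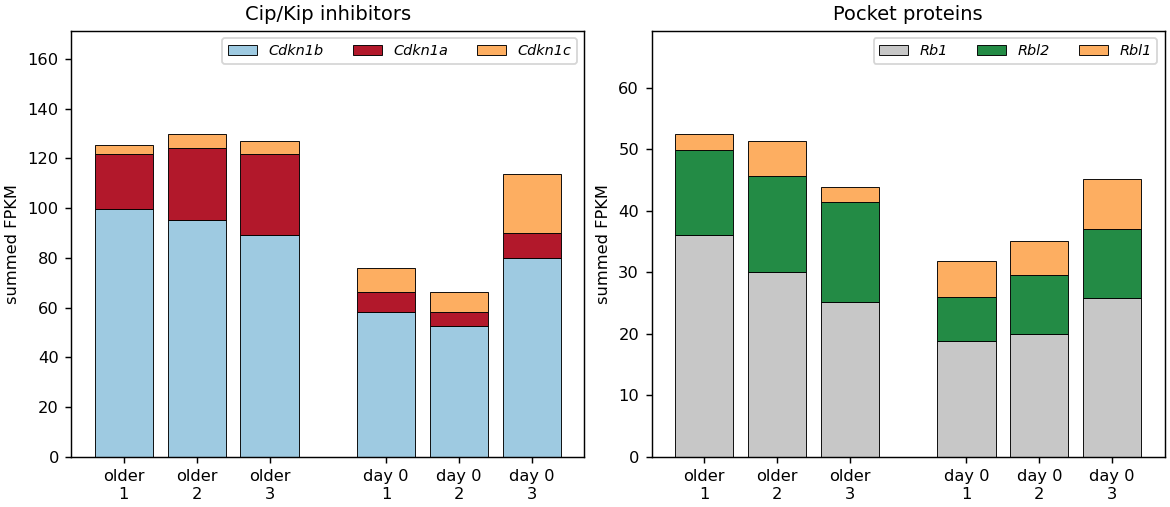
Summed FPKM (vertical axes, from 0) of the Cip/Kip inhibitor genes (left) and the pocket protein genes (right) in each library, older hearts left of day 0 hearts, stacked by gene. Cdkn1b fills most of each Cip/Kip bar, and the Cdkn1a band is wider than the Cdkn1c band in each older library and narrower in each day 0 library.

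Cdkn2c encodes p18, an INK4 inhibitor of CDK4 and CDK6, and was among the lowest of the 8 genes. It had 3.21, 3.86 and 2.65 FPKM in older hearts and 1.77, 6.16 and 8.27 FPKM in day 0 hearts. Day 0 library 1 lay below all older libraries and the other day 0 libraries above them, so the ages overlapped. With 57 to 89 reads in older and 37 to 193 reads in day 0 hearts, the spread at day 0 exceeds counting error. The log2 fold change was -0.43 (SE 0.46, 95% interval -1.50 to 0.64, limma adjusted p = 0.599), and the interval covers both a fall and a rise. Without day 0 replicate 1 it was -0.95 and without day 0 replicate 3 -0.08. Drosha (r = 0.994), Cactin (0.980) and Creb3l1 (0.979) had the closest patterns. No row was used for Cdkn2a and Cdkn2b, the INK4 genes at the locus linked to senescence.

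Among pocket proteins, Rbl2 and Rbl1 lay in opposite directions. Rbl2, the pocket protein of resting cells, had 13.8, 15.7 and 16.3 FPKM in older hearts, against 7.14, 9.66 and 11.3 FPKM in day 0 hearts, with no overlap. Its log2 fold change of 0.67 (SE 0.20, 95% interval 0.20 to 1.13) was not called by limma (adjusted p = 0.0821), but was called by voom (adjusted p = 0.00783) and in the authors' deposited table (0.00205). Rbl1, which is itself an E2F target and is made in cycling cells, had 2.58, 5.63 and 2.37 FPKM in older hearts and 5.86, 5.58 and 8.06 FPKM in day 0 hearts. Older library 2 lay just above the lowest day 0 library, and the other older libraries lay below all of them. The log2 fold change of Rbl1 was -0.78 (SE 0.33, 95% interval -1.55 to -0.02, limma adjusted p = 0.182). It ran from -1.09 without older replicate 2 to -0.61 without older replicate 3 and was not called in either case.

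Rbl2 exceeded Rbl1 by a ratio of FPKM of 5.34, 2.79 and 6.88 in the older libraries and of 1.22, 1.73 and 1.41 in the day 0 libraries. These ratios combine opposite differences of genes that limma did not call. Their lack of overlap is a description and was not tested. Rb1, the retinoblastoma gene and the third pocket protein, was the most abundant of the family, at 57.3% to 68.7% of their summed FPKM in older hearts and 56.6% to 59.2% in day 0 hearts. Its level was 36.0, 29.95 and 25.1 FPKM in older hearts and 18.8, 19.9 and 25.7 FPKM in day 0 hearts, which overlap through older library 3 and day 0 library 3. Limma did not call Rb1 (log2 fold change 0.48, adjusted p = 0.152), whereas voom (0.0349) and the authors' deposited table (0.0199) did. Genes nearest in pattern were Crim1 (r = 0.994), Nrap (0.992) and Cxcl12 (0.990) for Rbl2 and Ghitm (0.986), Tbca (0.986) and Arpc5 (0.983) for Rbl1.

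Mdm2 and Ccng1, further targets of p53, overlapped between the ages and were not called. Mdm2, the ubiquitin ligase of p53, had 21.6, 16.7 and 17.1 FPKM in older hearts and 13.3, 17.4 and 19.6 FPKM in day 0 hearts, with the ages mixed. Its log2 fold change was 0.14 (SE 0.19, 95% interval -0.31 to 0.58, limma adjusted p = 0.694), and -0.01 without day 0 replicate 1. Ccng1, which encodes cyclin G1, was the most abundant of the 8 at 125, 133 and 107 FPKM in older hearts and 128, 119 and 138 FPKM in day 0 hearts. Its log2 fold change was -0.08 (SE 0.12, 95% interval -0.36 to 0.19, limma adjusted p = 0.693) and turned to 0.03 with centring on the median gene. The upper 95% bounds of 0.58 for Mdm2 and 0.19 for Ccng1 lie below the lower bound of 1.15 for Cdkn1a. The same holds for every other member, with upper bounds of up to 1.13 (Rbl2), and for Rb1 at 0.91. The closest patterns were those of Msantd2 (r = 0.967), Cir1 (0.961) and Ric1 (0.960) for Mdm2 and of Ubr7 (0.984), Rerg (0.979) and Pstk (0.975) for Ccng1. Per library, Cdkn1a stood at 1.03, 1.75 and 1.90 times the FPKM of Mdm2 in older hearts and at 0.595, 0.337 and 0.521 times in day 0 hearts.

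**Figure D3:**
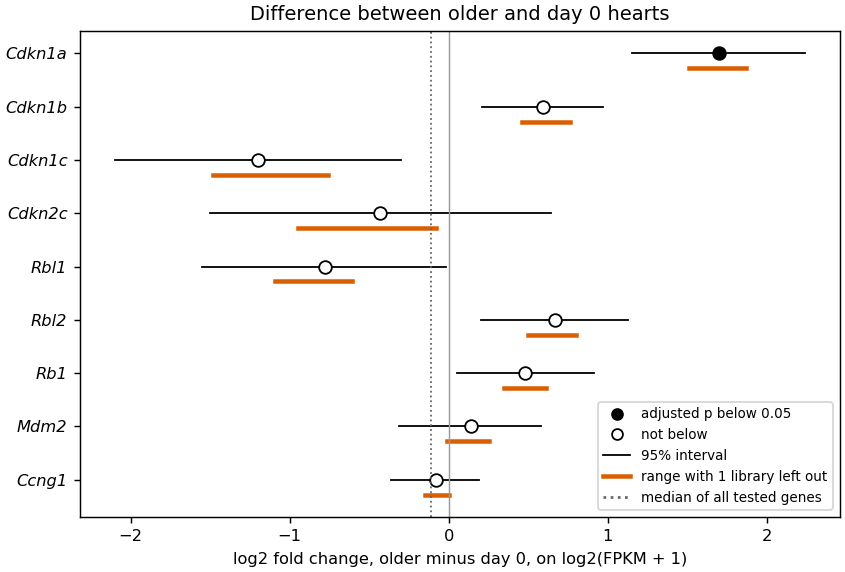
Log2 fold change of older minus day 0 hearts on the log2(FPKM + 1) scale (horizontal axis) for the 8 genes and Rb1, with 95% intervals (black lines), the range with 1 library left out (orange) and the median of all tested genes (dotted, -0.11). Cdkn1a at 1.70 is filled as passing limma's test, and the interval of Cdkn1a lies wholly above those of all the other genes shown.

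By level in older hearts the order was Ccng1, Cdkn1b, Cdkn1a, Mdm2, Rbl2, Cdkn1c, Rbl1 and Cdkn2c. The ranges of neighbours were separate down to Cdkn1c, and those of Cdkn1c, Rbl1 and Cdkn2c overlapped in turn. At day 0 the order was Ccng1, Cdkn1b, Mdm2, Cdkn1c, Rbl2, Cdkn1a, Rbl1 and Cdkn2c, and from Mdm2 downwards every neighbour's range overlapped the next. Cdkn1a thus had rank 3 in older hearts and rank 6 in day 0 hearts.

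The list of p53 target genes leaves out the members Cdkn1a, Mdm2 and Ccng1. Of its 37 tested genes 3 rose and 1 fell, where 3.52% of all tested genes rose and 5.73% fell. Voom called 5 of the 37 higher and 1 lower, and centring on the median gene left 3 higher and 0 lower. Their median log2 fold change was -0.04 beside -0.11 for all tested genes. Tp53inp1, a p53-induced stress protein gene, rose (27.9 ± 2.42 FPKM in older and 14.1 ± 3.44 FPKM in day 0 hearts; SD, n = 3 each; log2 fold change 0.97, limma adjusted p = 0.0277). Ddit4, an inhibitor of mTORC1 signalling, was higher at 34.4 ± 5.79 against 16.3 ± 5.75 FPKM (SD, n = 3 each; 1.07, limma adjusted p = 0.0385), and Pltp, a phospholipid transfer protein gene, at 1.52 (limma adjusted p = 0.0432). Ccnd1, the cyclin D1 gene, fell at -1.15 (limma adjusted p = 0.0345) and is counted again in the list of cyclins and kinases below. With 1 library left out these calls were lost in 5 of 6 cases for Tp53inp1, Ddit4 and Ccnd1 and in 6 of 6 for Pltp, with limma adjusted p up to 0.112, 0.141, 0.124 and 0.161. The death gene Bax stood at 0.07 (limma adjusted p = 0.933) and the damage-response gene Gadd45a at -0.34 (limma adjusted p = 0.446). In the list of p53 relatives and regulators, no row was used for the relatives Tp63 and Tp73, so these were not tested. Among the 15 genes tested limma called 0 higher and 0 lower, with 1 higher and 1 lower at an unadjusted p under 0.05. Voom called 1 higher and 0 lower. The gene voom called was Ccng2, the cyclin G2 gene, at 0.53 (limma adjusted p = 0.0569), which limma also called after centring on the median gene and after quantile normalization. Mdm4, the partner of Mdm2, was at 0.05 (limma adjusted p = 0.844).

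In the list of G1 and S phase cyclins and kinases, which includes the phosphatase gene Cdc25a, each gene that passed the test fell. Of the 15 tested genes in that list 0 rose and 4 fell, where 5.73% of all tested genes fell. Most of all tested genes had negative log2 fold changes (median -0.11), as had 14 of these 15 (median -0.40). By voom 0 rose and 3 fell, and 0 were higher at an unadjusted p under 0.05. Cdk4, the kinase that INK4 proteins bind, fell (19.9 ± 1.73 FPKM in older and 50.7 ± 13.2 FPKM in day 0 hearts; SD, n = 3 each; log2 fold change -1.28, limma adjusted p = 0.0115). The others were Ccnd1, the phosphatase gene Cdc25a (-0.86, limma adjusted p = 0.0419) and Ccnd3, a D-type cyclin gene (-0.70, limma adjusted p = 0.0385). Without 1 library at most 2 of these 15 were called, and after centring on the median gene 1. The call of Cdk4 was lost in 3 of these 6 cases (limma adjusted p up to 0.0581), that of Cdc25a in 5 and that of Ccnd3 in 6. Cdk4 had 0.197, 0.229 and 0.206 times the FPKM of Cdkn1b in older hearts and 0.629, 1.2 and 0.656 times in day 0 hearts. As a measure of cycling cells, 1 of 7 proliferation markers fell (Ccnb1, lost in 4 of 6 cases with 1 library left out, limma adjusted p up to 0.0841 without older replicate 2), and their summed level was 84.8 to 103 FPKM in older and 111 to 169 FPKM in day 0 hearts. Whether a smaller share of cycling cells has a part in these differences was not tested.

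Of 18 DREAM complex and E2F genes 0 rose and 3 fell (0 and 3 by voom, 0 and 6 at an unadjusted p under 0.05), with a median of -0.27. Of all tested genes 5.73% fell, and their median was -0.11. Lin9, a core subunit of DREAM, was at 2.42 ± 0.414 FPKM in older and 8.59 ± 0.984 FPKM in day 0 hearts (SD, n = 3 each; log2 fold change -1.49, limma adjusted p = 0.0102). E2f6, a repressor that binds no pocket protein, fell to 58.1 ± 5.31 FPKM in older hearts, against 115 ± 14.1 FPKM in day 0 hearts (SD, n = 3 each; -0.97, limma adjusted p = 0.00599). Rbbp7, a histone-binding protein gene, fell at -0.60 (limma adjusted p = 0.0118). Without older replicate 2 the calls of Lin9 (limma adjusted p = 0.0534) and Rbbp7 (0.0506) were lost, and Lin9 was lost in 1 further case, while E2f6 passed in all 6. E2f4, an E2F that pairs with Rbl1 and Rbl2, was at -0.28 (limma adjusted p = 0.388).

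Of 29 tested genes that control the inhibitors' amounts, 2 rose and 2 fell, where 3.52% of all tested genes rose and 5.73% fell. The median of the 29 was -0.13. Their split depended on the scaling, with 3 higher and 0 lower after centring on the median gene. It was 3 higher and 1 lower after quantile normalization, and 5 higher and 2 lower by voom. Foxo3, a forkhead factor that can induce Cdkn1a and Cdkn1b, rose (33.6 ± 4.995 FPKM in older and 17.6 ± 0.775 FPKM in day 0 hearts; SD, n = 3 each; log2 fold change 0.89, limma adjusted p = 0.0126). Cebpb, a transcription factor gene, rose at 1.54 (limma adjusted p = 0.0188). Skp1, the adaptor of the ubiquitin ligase that degrades p27, fell (147 ± 15.1 FPKM in older and 227 ± 25.2 FPKM in day 0 hearts; SD, n = 3 each; -0.62, limma adjusted p = 0.0236). Meis2, a homeobox factor gene, fell at -0.60 (limma adjusted p = 0.0482). With 1 library left out the calls were lost in 4 of 6 cases for Foxo3 and Cebpb and in 5 of 6 for Skp1 and Meis2, with limma adjusted p up to 0.054, 0.0847, 0.0917 and 0.15. Skp2, the subunit that recognises p27, was at -0.78 (limma adjusted p = 0.314). Of the remaining listed inhibitor and pocket genes, Cdkn3 was at -1.10 (limma adjusted p = 0.058) and Rb1 as given above, so 0 of 2 passed, with 1 each way at an unadjusted p under 0.05 and Rb1 alone called by voom.

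**Figure D4:**
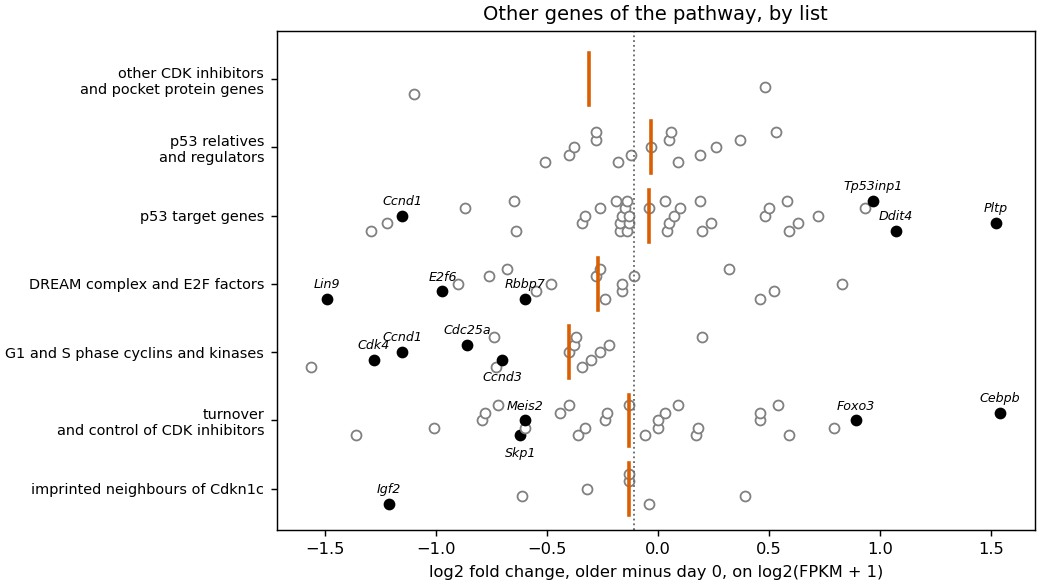
Log2 fold change of older minus day 0 hearts on the log2(FPKM + 1) scale (horizontal axis) for each tested gene of 7 lists (vertical axis, points spread for legibility), with called genes filled and named, list medians in orange and the median of all tested genes dotted (-0.11). The cyclin and kinase list has 4 filled points, all on the negative side, and the p53 target list has filled points on both sides.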

How the data were processed

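Transcript levels were taken from 1 table of 16898 genes with columns for the 6 input libraries. Per the submitters' processing notes, HISAT2, HOMER 4.10 and the build rn5 were used, in roles those notes leave unstated. No source used here names the counter or the annotation, so overlapping and antisense genes may share reads, and no coordinates of the table's genes are printed. The deposited values are FPKM, as their steps show: whole reads came back for 100% of genes at a relative tolerance of 1e-11. The table also holds the authors' log2 fold change, p-value and adjusted p-value, whose test is not stated. Header names OD and 10D were read as day 0 and as the labelled day 7.

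FPKM values were tested as log2(FPKM + 1) with limma 3.58.1 in R 4.3.3 (lmFit, eBayes with a trend, Benjamini-Hochberg at 0.05) for the 13117 genes averaging 1 FPKM or more. Fold changes on this scale understate changes of low genes. Ages were compared as 3 against 3 libraries, and 16 alternatives were run. Reads were amplified by PCR, so read numbers describe counting error only. The fit and the recovery were tested on simulated data. Replicate numbers were not taken to pair libraries: same-numbered libraries had correlations of deviations of -0.036, -0.003 and -0.050. With 3 libraries per age these values showed no pairing but cannot exclude one.

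The members, gene lists and tests were chosen with earlier results of these data known. Named genes are the members, Rb1, called list members (up to 6 per list) and the 3 genes (mean of at least 5 FPKM, clone names left out) closest to each member by Pearson r. Kcnq1, Nap1l4, Bax, Gadd45a, Mdm4, Ccng2, E2f4, Skp2, Cdkn3 and the markers were named after their values were seen. A gene of the named genes and lists is not reported here.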

Additional observations from a re-analysis of the deposited data

How the results depend on the processing

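Of all tested genes 1214 were called, with 669 under eBayes without a trend, 501 with the replicate block, 1992 over all genes of the authors' deposited table and 363 to 1130 with 1 library left out. The share of calls that were higher was 38.1% and became 57.1% after centring on the median gene and 56.4% after quantile normalization, since the median gene stood at -0.11. The members called were 1, and 2 after centring, 2 after quantile normalization, 3 with voom, 4 in the authors' deposited table and 1 to 2 with 1 library left out. Cdkn1a passed under all 16 alternatives. With the replicate block its limma adjusted p was 0.0216 with the same log2 fold change and no other member was called. Log2 fold changes changed sign for Mdm2 without day 0 replicate 1 (-0.01) and for Ccng1 with centring (0.03), quantile normalization (0.08), voom (0.03), the authors' deposited table (0.04) and without older replicate 3 (0.00), none of them called. Their ranges with 1 library left out were -0.01 to 0.25 for Mdm2 and -0.15 to 0.00 for Ccng1. With 1 library left out, list calls ranged over 0 to 3 for p53 targets (4 with all libraries), 1 to 3 for DREAM and E2F genes (3), 0 to 2 for cyclins and kinases (4) and 0 to 5 for genes that control the inhibitors (4). The list of p53 relatives and regulators, in which Tp63 and Tp73 were not tested, had 0 calls, and 1 after centring and 1 after quantile normalization. Cyclins and kinases had 1 call after centring and 2 after quantile normalization. Cdkn2c gave no value with the filter at a mean of 5 FPKM. Fewer samples enter each fit with 1 library left out, and the cause of the other shifts was not tested. Depth limits Cdkn2c, Rbl1 and Cdkn1c most, with as few as 37, 107 and 121 reads in a library.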
